A study of Mus musculus with 3 samples.

Results

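The 10 genes Acta2, Tagln, Myh11, Cnn1, Mylk, Myl9, Tpm2, Lmod1, Actg2 and Smtn, which encode the smooth muscle contractile apparatus, were followed through the non-CMs of the mouse heart. These 10 of 27998 genes in the count matrices were taken as a named list of contractile genes and not by a rule on their values. All 10 were present in every matrix. The members and the gene lists used below, those that split the cells among them, were chosen with earlier results of these data known. The study profiled non-CMs, the cells of the heart other than cardiomyocytes (CMs), by droplet-based single-cell RNA sequencing in 3 phases of heart failure development, with 1 library per phase. Untreated ventricles of wild-type mice stood for 0 weeks (healthy), and the other libraries were taken 2 weeks (adaptive hypertrophy) and 12 weeks (heart failure) after transverse aortic constriction (TAC). TAC is a ligature around the aortic arch that raises the pressure against which the left ventricle pumps, and the operated mice were wild-type C57BL/6J JCL males, 8 weeks old at surgery. The ventricles were digested with collagenase and DNase and freed of CMs and debris on Percoll, and the number of hearts in each library and the age of the healthy mice were not given in the sources used here. The phase and the library cannot be told apart in this design, and because the cells of a library are not replicates, phases are compared by size and counting error without a test.

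Smooth muscle contracts when myosin motors pull on actin filaments. Calcium, through calmodulin, activates the myosin light chain kinase encoded by Mylk, which phosphorylates the regulatory light chain encoded by Myl9 on the heavy chain encoded by Myh11, and this switches on the motor that pulls on the smooth muscle actins of Acta2 and Actg2. The other members lie along the thin filament, where tropomyosin (Tpm2), calponin (Cnn1), transgelin or SM22 (Tagln), smoothelin (Smtn) and leiomodin (Lmod1) bind, stabilise or extend actin. Many of these genes are textbook targets of serum response factor and myocardin, which act through the CArG box. In the heart they mark the smooth muscle of the coronary vessels, while pericytes, the mural cells of capillaries, are known to hold little of this apparatus, and activated fibroblasts (myofibroblasts) can take up Acta2.

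In the GENCODE annotation of GRCm38, which the files share by Ensembl identifier, the members lie on 8 chromosomes. The actins were Acta2 (ENSMUSG00000035783, chr19:34241090-34255590, minus strand) and Actg2 (ENSMUSG00000059430, chr6:83512905-83536265, minus strand). The myosin genes were Myh11 (ENSMUSG00000018830, chr16:14194535-14291372, minus strand) and Myl9 (ENSMUSG00000067818, chr2:156775420-156781658, plus strand), and the kinase was Mylk (ENSMUSG00000022836, chr16:34745210-35002420, plus strand). The thin filament genes were Tpm2 (ENSMUSG00000028464, chr4:43514711-43523765, minus strand), Cnn1 (ENSMUSG00000001349, chr9:22099216-22109630, plus strand), Tagln (ENSMUSG00000032085, chr9:45929619-45936058, minus strand), Smtn (ENSMUSG00000020439, chr11:3517523-3540612, minus strand) and Lmod1 (ENSMUSG00000048096, chr1:135324807-135368065, plus strand). No other annotated gene overlapped a member on its own strand, while Tagln, Mylk, Lmod1 and Smtn overlapped 1 to 3 genes on the opposite strand. Promoters of 7 members were in the RefSeq table of GRCm38.p6, from 250 bases before to 50 bases after the start, and Tagln, Myh11 and Actg2 had no entry. The CArG box, CC and GG around 6 bases that are each A or T, was searched on both strands. In this exact form 1 of the 7 promoters, that of Myl9, held it, beginning 161 bases before the start, where 535 of 32851 promoters in the table did (1.63%). With up to 1 mismatch it stood in 3 of the 7, Acta2, Lmod1 and Myl9, and in 6936 of all promoters (21.1%). The TATA motif TATAAA stood in none of the 7, against 4473 of all promoters (13.6%). The promoters of Acta2 and Myl9 are printed here because these genes carry the phase comparison that follows, with the exact CArG box of Myl9 in capitals, and a match of letters is only a description.
Acta2 promoter, chr19:34255324-34255623, minus strand, 5′ to 3′: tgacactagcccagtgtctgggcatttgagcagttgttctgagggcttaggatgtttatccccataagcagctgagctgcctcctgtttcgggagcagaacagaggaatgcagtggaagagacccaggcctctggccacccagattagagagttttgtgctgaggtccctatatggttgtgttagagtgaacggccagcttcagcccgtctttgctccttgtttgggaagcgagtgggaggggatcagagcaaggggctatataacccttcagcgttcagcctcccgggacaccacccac
Myl9 promoter, chr2:156775214-156775513, plus strand, 5′ to 3′: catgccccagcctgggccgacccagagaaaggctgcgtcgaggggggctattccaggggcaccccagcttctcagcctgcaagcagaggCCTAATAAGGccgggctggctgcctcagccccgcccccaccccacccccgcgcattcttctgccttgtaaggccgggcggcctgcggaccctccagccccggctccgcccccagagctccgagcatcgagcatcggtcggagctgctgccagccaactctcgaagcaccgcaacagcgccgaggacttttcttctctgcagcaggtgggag

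The kept cells, those with at least 200 genes, numbered 3892 in the healthy library, 2231 at 2 weeks and 792 at 12 weeks, with medians of 2589, 1495 and 1434 unique molecular identifiers (UMIs, the counted RNA molecules) per cell, so that the healthy library was the deepest. Of the cell barcodes, 9 occurred in 2 libraries, and 1 of these was among the mural and Rgs5-low cells described here. Each cell was given the class whose marker genes held the most UMIs: mural (Notch3, Rgs5 and Vtn), endothelial cell (EC), fibroblast (FB), blood cell (BC) or neural cell (NC). Mural cells were then split, without any contractile gene, into SMC-like cells by a list of 10 smooth muscle genes such as Mustn1, Sncg, Pcp4l1 and Rbpms2, and pericyte-like cells by Kcnj8, Abcc9, Vtn, Colec11, Higd1b and P2ry14. The mural gate held 284, 60 and 34 cells at 0, 2 and 12 weeks, of which 237, 46 and 20 were SMC-like, 39, 4 and 10 pericyte-like and the rest unresolved. These counts set how firmly each phase can be read, and the 4 pericyte-like cells at 2 weeks are too few to describe a cell type.

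Levels are given as UMIs of a gene per 1000000 UMIs of all cells of a class (CPM), and intervals are exact 95% intervals that cover counting error only, not the spread between hearts. All 10 smooth muscle list genes were detected in SMC-like cells of each library, where the list summed to 4217, 6318 and 5853 CPM, against 914 CPM in healthy pericyte-like cells. The pericyte list ran the other way, at 548 CPM in healthy SMC-like and 4819 CPM in healthy pericyte-like cells. Both lists were used to split the cells, so these opposite sums follow from the split and are no finding. Markers of other classes were present as well. The 8 EC gate genes were all detected in the SMC-like cells of each library and summed to 1529, 1463 and 809 CPM at 0, 2 and 12 weeks, against 5633 to 6992 CPM in ECs. Of 8 CM markers, 6 or 7 were detected in SMC-like cells, at 495, 639 and 984 CPM in sum. Nearly all of this was Pln, at 349.6, 499 and 448 CPM, and Tnnt2, at 113, 67.3 and 461 CPM. The other markers had at most 14 UMIs each in a library and Myh6 had none, so that the sum rests on those 2 genes. The median mitochondrial share in SMC-like cells was 5.11%, 8.97% and 8.03% of UMIs.

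The actin and myosin genes were at high levels in SMC-like cells of every phase. Acta2 stood at 5938 CPM in healthy SMC-like cells, 7972 CPM at 2 weeks and 11519.6 CPM at 12 weeks. In FBs, ECs and BCs the same gene lay at 176, 111 and 121 CPM in the healthy library. Myh11, the smooth muscle myosin heavy chain, had 1453, 2035 and 1395 CPM in SMC-like cells at 0, 2 and 12 weeks. The order of classes was the same for most members: pericyte-like cells came below SMC-like cells, and FBs, ECs and BCs lay far below both. Between FBs, ECs and BCs the healthy levels of Myh11, Cnn1, Lmod1 and Actg2 were within counting error of their neighbours in that order.

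Myl9, the regulatory light chain, had 2909, 5691 and 6912 CPM in SMC-like cells at 0, 2 and 12 weeks, and Mylk, its kinase, had 1368, 1323 and 1283 CPM. Of the thin filament genes, Tagln stood at 3684, 5707 and 7086 CPM and Tpm2 at 2525, 3571 and 5878 CPM. The sparser members were Cnn1 (94.1, 123 and 324 CPM), Lmod1 (419.9, 353 and 610.2 CPM) and Smtn (94.1, 135 and 162 CPM), each compared here with itself across phases and not with the other genes. Actg2, the enteric smooth muscle actin, had 31 UMIs (32.1 CPM) in healthy SMC-like cells, 1 UMI at 2 weeks and none at 12 weeks. A count of 0 at 12 weeks allows up to 37.4 CPM, which is above the healthy level, and at this depth a lower level could not have been seen.

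**Figure D1:**
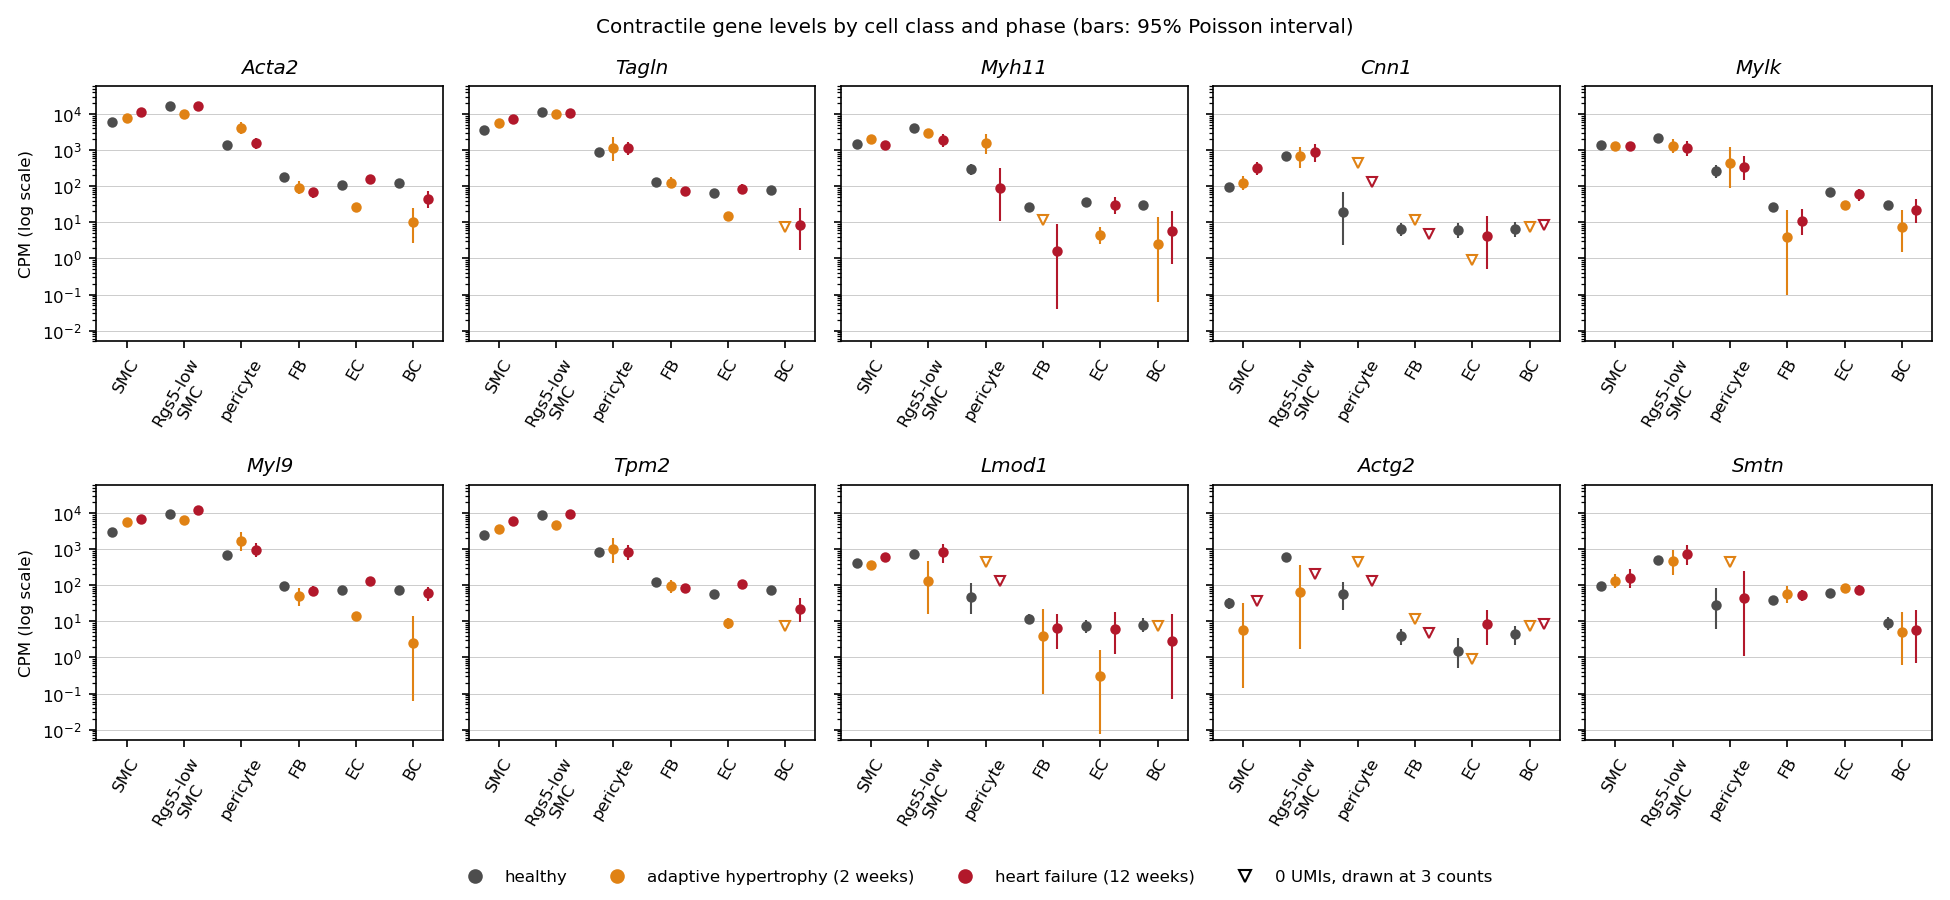
Levels of the 10 members in CPM (log axis) in SMC-like cells (SMC), Rgs5-low SMC-like cells, pericyte-like cells, FBs, ECs and BCs of the healthy, 2-week and 12-week libraries, with 95% Poisson intervals as bars and open triangles where no UMI was counted, drawn at 3 counts. Acta2 stands at 5938 CPM in healthy SMC-like cells and at 121 CPM in BCs, while Smtn differs far less between SMC-like cells (94.1 CPM) and ECs (60.9 CPM).

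The share of cells with a UMI was compared after each cell was thinned to 1000 UMIs, because depth differed between classes. Acta2 was then detected in 94.1% (90.3 to 96.7) of healthy SMC-like cells, 23.1% (11.1 to 39.3) of pericyte-like cells, 6.80% (5.48 to 8.33) of FBs and 6.15% (4.81 to 7.74) of ECs, with Clopper-Pearson intervals. Among BCs, which should lack the gene, the share was 4.33% (3.12 to 5.83), and before thinning the median depths were 3234 UMIs in SMC-like cells and 2617 in BCs, with 98.3% and 9.71% of cells positive. Cnn1 was detected in 10.5% (6.94 to 15.2) and Actg2 in 4.64% (2.34 to 8.15) of thinned healthy SMC-like cells, so that most of these cells gave no UMI of either gene. In BCs the thinned shares were 0.422% (0.115 to 1.08) for Cnn1 and 0.106% (0.00267 to 0.587) for Actg2. Healthy SMC-like cells held a median of 7 of the 10 members at their own depth, and 230 of 237 held at least 5.

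SMC-like and pericyte-like cells were compared first in the healthy library, where both were best represented. Of the 10 members, 9 were at least 2-fold higher in SMC-like cells and none was 2-fold lower, where 14.6% of 5993 genes with at least 20 UMIs were higher by that margin and 10.5% lower. Acta2 was 4.23-fold (3.59 to 5.02) higher in SMC-like cells, at 5938 against 1404 CPM. Myh11 was 4.87-fold (3.42 to 7.20) higher and Myl9 4.20-fold (3.32 to 5.39). Mylk, the kinase, was 5.27-fold (3.60 to 8.03) higher. The members' median log2 ratio was 2.07, against 0.015 over all genes compared.

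Among the thin filament genes, Tpm2 had a ratio of 3.09 (2.49 to 3.88), Tagln of 4.12 (3.35 to 5.12) and Lmod1 of 8.73 (3.71 to 27.0). Cnn1 and Smtn passed the same limit on little RNA, with 2 and 3 UMIs in pericyte-like cells and ratios of 4.89 (1.32 to 41.0) and 3.26 (1.08 to 16.1). Actg2 was the exception, with 32.1 CPM in SMC-like and 57.7 CPM in pericyte-like cells and a ratio of 0.556 (0.228 to 1.63), whose interval includes 1. The largest number of its UMIs in 1 pericyte-like cell was 5 of 6, so that level rests on very few cells.

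Contractile RNA was spread unevenly among the pericyte-like cells. The 10 members together made up a median of 10.2 UMIs per 10000 in the 39 healthy pericyte-like cells and 171 in the 237 SMC-like cells, and the ranges overlapped, from 0 to 307 and from 3.60 to 625. Of the pericyte-like cells, 6 had no member UMI, while 8 with at least 5 members held 86.6% of all member UMIs of the class. The 9 pericyte-like cells without any UMI of another class's gate genes had 1323 CPM of members in sum, against 4972 CPM in the other 30. The part that mixed droplets have in the pericyte-like level was not tested.

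The same direction was seen in the heart failure library. All 8 members with at least 20 UMIs over both classes were at least 2-fold higher in the 20 SMC-like than in the 10 pericyte-like cells, where 21.5% of genes were. Acta2 was 7.34-fold (5.26 to 10.5), Myl9 7.21-fold (4.71 to 11.6) and Tpm2 7.10-fold (4.49 to 11.9) higher. Cnn1 and Lmod1 had no UMI in pericyte-like cells and were at least 2.48-fold and 4.67-fold higher against a floor of 3 counts. Smtn, with 1 UMI in pericyte-like cells, had a ratio of 3.71 (0.558 to 158). At 2 weeks, against 4 pericyte-like cells, 4 of 9 members (Tagln, Mylk, Myl9 and Tpm2) passed the limit, where 8.44% of genes did, and Acta2 had a ratio of 1.91 (1.33 to 2.87) and Myh11 of 1.29 (0.711 to 2.60).

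**Figure D2:**
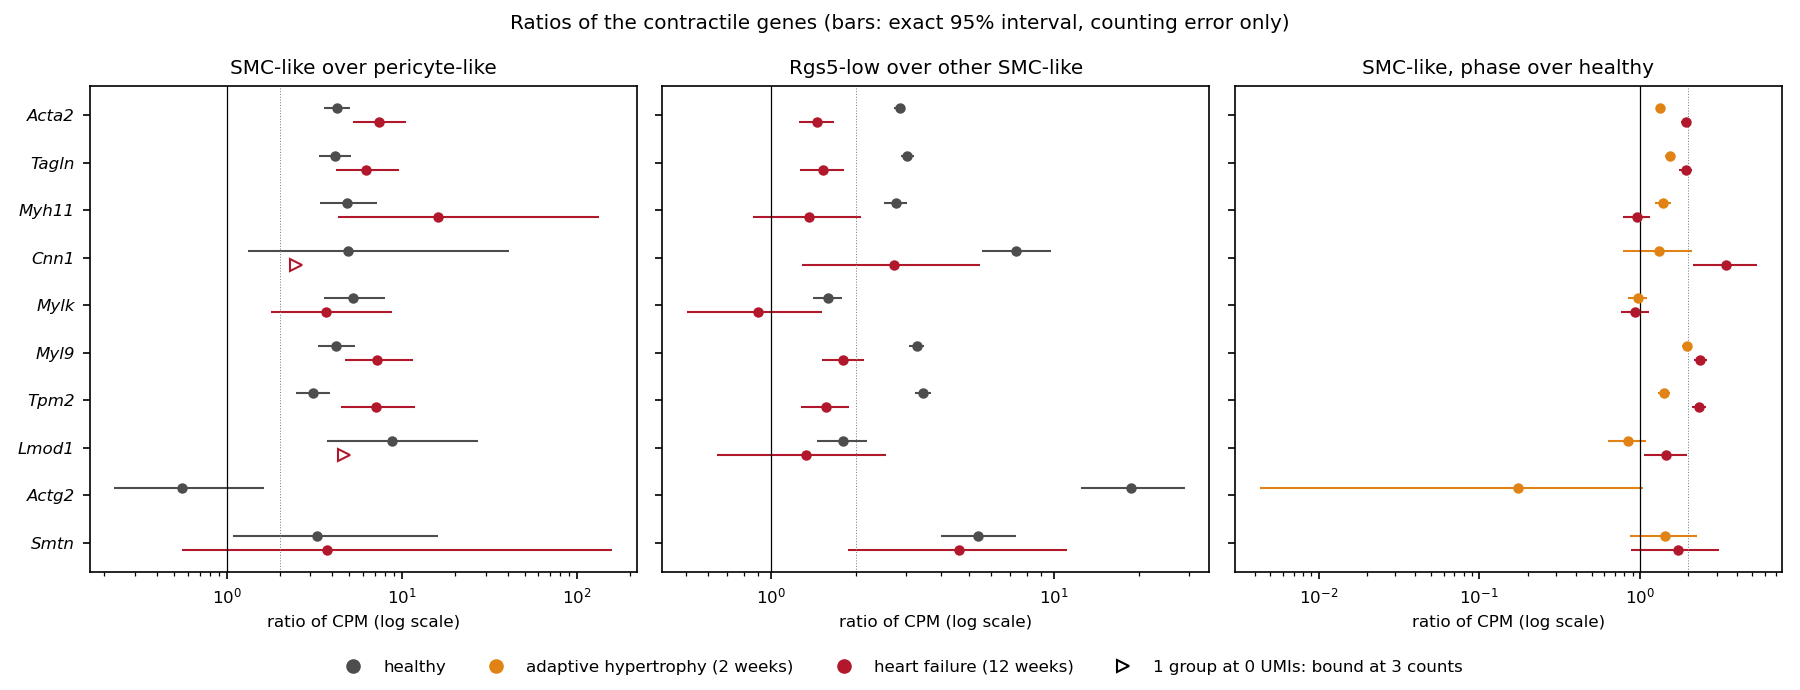
Ratios of CPM (log axis) of each member, for SMC-like over pericyte-like cells, Rgs5-low over other SMC-like cells, and SMC-like cells of each TAC phase over healthy, with exact 95% intervals as bars, a solid line at a ratio of 1 and a dotted line at 2. Actg2 is the member with a ratio below 1 on the left (0.556) and the furthest right in the middle panel (18.7).

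Other genes of the contractile machinery were read from fixed lists, with each comparison made in the healthy library. Of 15 further actin, myosin and cytoskeletal genes, 11 were at least 2-fold higher in SMC-like than in pericyte-like cells and none 2-fold lower, with a median log2 ratio of 1.23. Over all genes 14.6% were higher and 10.5% lower by that margin. Flna, the actin crosslinker filamin A, had a ratio of 4.25 (2.73 to 7.0), Csrp1 of 4.29 (2.66 to 7.41), and Pdlim3, a Z-line and dense body protein, of 3.47 (1.32 to 12.9). Cald1 (caldesmon) and Tns1 (tensin) stood at 1.64 and 1.28, and Vcl (vinculin) at 0.879.

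Genes that control contraction had a lower median ratio than the cytoskeletal genes. Of 17 listed genes, 15 had enough UMIs, 6 were 2-fold higher in SMC-like cells and 1 was 2-fold lower, with a median log2 ratio of 0.54. The shares over all genes, 14.6% higher and 10.5% lower, stand beside this and the following lists. Ppp1r12a, the targeting subunit of myosin phosphatase, had a ratio of 3.59 (2.16 to 6.47), and Ramp1, a part of the receptor for the vasodilator CGRP, of 6.29 (1.70 to 52.6). Ednra, the endothelin A receptor, was lower in SMC-like cells, at 0.422 (0.232 to 0.823). Of 9 genes of the myocardin and serum response factor axis, 6 had enough UMIs and 4 were higher, among them Csrp2 at 5.37 (2.89 to 11.3) and Klf4 at 2.13 (1.69 to 2.71), while the intervals for Myocd (4.30, interval 0.729 to 174) and Srf (2.04, interval 0.528 to 17.5) include 1. Of the mural identity genes outside the gate, none of 8 with enough UMIs was 2-fold higher in SMC-like cells and 2 were 2-fold lower, Pdgfrb at 0.349 (0.266 to 0.463) and Heyl at 0.272 (0.146 to 0.533). Of 9 myofibroblast matrix genes, 3 had enough UMIs, none was higher and 1, Postn, was lower.

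Mural cells were next ordered along an index, the share of smooth muscle list UMIs among the UMIs of both split lists, which uses no member. In the healthy library the 10 members summed to 1534, 3930.1, 5888, 10337 and 21079.5 CPM in 5 steps from an index of 0 to an index above 0.75, over 7, 25, 12, 51 and 185 cells. The sum was thus higher at each step toward the smooth muscle end. The last step against the first 2 together gave a ratio of 5.93 (5.25 to 6.73). Myh11 had the ratio 11.2 (6.24 to 22.5) and Lmod1 16.6 (4.57 to 138), Acta2 6.90 (5.47 to 8.83) and Tpm2 4.32 (3.27 to 5.84). Acta2 went from 85.2 CPM in the 7 cells with an index of 0 to 1134, 2129, 3568 and 6684 CPM, while Tpm2 began at 511 CPM and ended at 2908 CPM. Rgs5, the gate gene that both cell types share, ran at 7927, 9586, 11066, 10012 and 6539.7 CPM over the same steps.

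Actg2 did not follow this order, with 95.9 CPM in the next-to-lowest step, none in the following steps up to 0.75, and 42.2 CPM at the smooth muscle end, and its ratio between the ends was 0.523 (0.215 to 1.53). The other libraries had few cells at the pericyte end. At 12 weeks the sums were 1482, 6268, 18170.1 and 39465 CPM over 5, 6, 4 and 15 cells, without a cell at an index of 0, and the ends differed by a ratio of 26.6 (14 to 58.3). At 2 weeks the lowest occupied step held 1 cell, and from the middle step on the sums were 11704, 18547 and 28586 CPM.

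**Figure D3:**
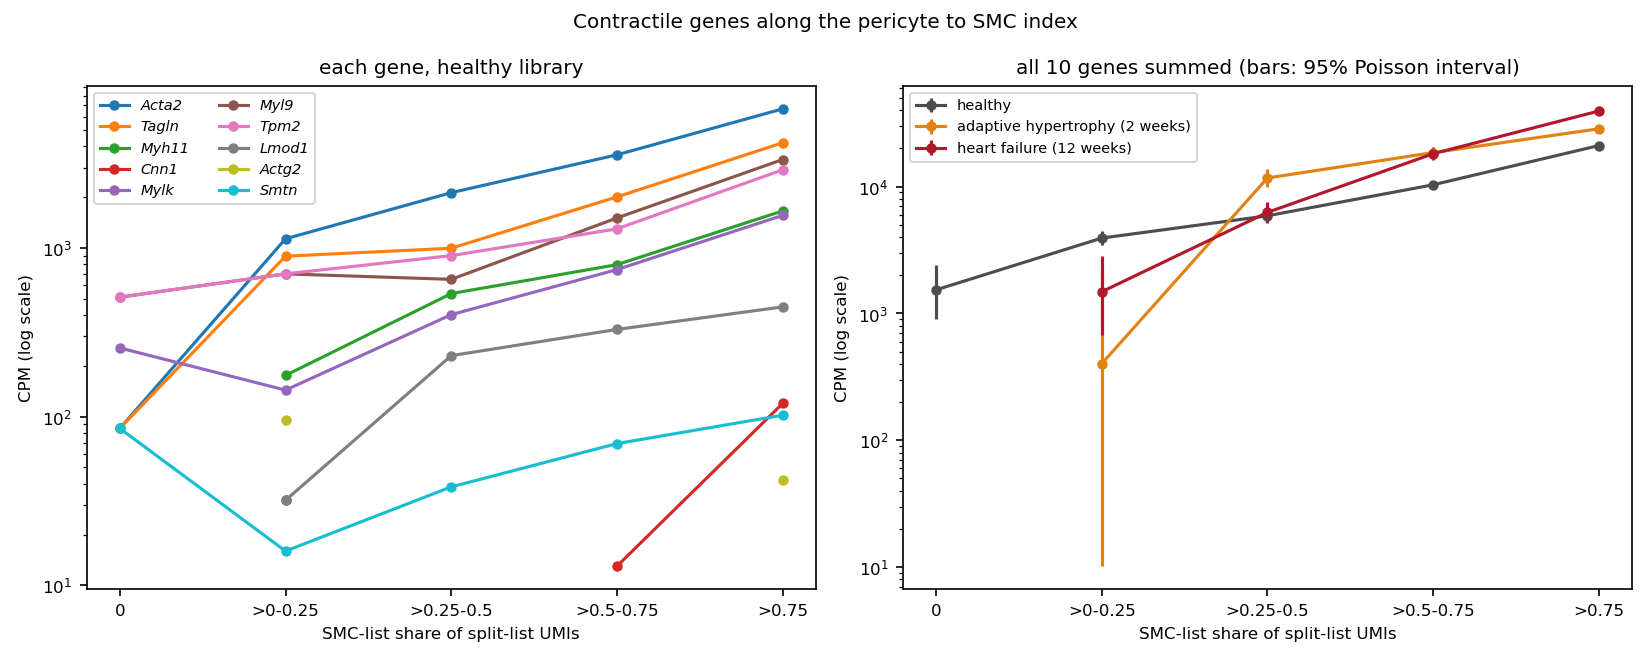
Levels in CPM (log axis) of each member in the healthy library (left) and of all 10 members summed in the 3 libraries (right, with 95% Poisson intervals) against the share of smooth muscle list UMIs among split-list UMIs, in 5 steps. The healthy sum runs from 1534 to 21079.5 CPM, and levels of 0 are not drawn.

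Cells with smooth muscle list genes but little Rgs5 missed the mural gate. They were collected, after the data were seen, by adding the smooth muscle list to that gate, and are called Rgs5-low SMC-like cells here. There were 79, 8 and 6 of them at 0, 2 and 12 weeks, and 71 of the 93 had no Rgs5 UMI. Of all classes in the healthy library they held the highest level of each member. Of the 10 members, 8 were at least 2-fold higher in them than in the gated SMC-like cells of the healthy library and none lower, where 5.8% of genes were higher and 23.1% lower by that margin. The median log2 ratio of the members was 1.66, against -0.36 over all genes compared. Low Rgs5 was part of how these cells were chosen and is no finding. They entered on smooth muscle list UMIs and, with few gate UMIs, could hold only few of another class. Among healthy cells without an EC gate UMI, 74 Rgs5-low and 96 gated, the members summed to 55888 and 31577 CPM. Over all cells of these sets the sums were 551 and 185 UMIs per 10000, a larger difference. The part of this choice in the member ratios was not tested.

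Acta2 stood at 16931 CPM in the healthy Rgs5-low cells against 5938 CPM in gated SMC-like cells, a ratio of 2.85 (2.73 to 2.98). Actg2 differed most among the members, with 104 UMIs (601 CPM) against 31 UMIs, a ratio of 18.7 (12.4 to 29.0). Cnn1 followed at 7.36 (5.56 to 9.78) and Smtn at 5.40 (3.98 to 7.32). Myh11 was higher by a ratio of 2.75 (2.51 to 3.02), and Tpm2, Myl9 and Tagln by 3.45, 3.28 and 3.03. Lmod1 (1.79, interval 1.46 to 2.18) and Mylk (1.58, interval 1.41 to 1.78) stayed below 2. After thinning, Cnn1 was detected in 43.0% (31.9 to 54.7) and Actg2 in 35.4% (25.0 to 47.0) of the Rgs5-low cells, against 0.422% (0.115 to 1.08) and 0.106% (0.00267 to 0.587) of BCs.

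The rest of the machinery was also read in these cells. Of the 15 further actin, myosin and cytoskeletal genes, 8 were 2-fold higher in healthy Rgs5-low than in gated SMC-like cells and none lower, against the 5.8% higher and 23.1% lower over all genes, with Synm (synemin) at 4.13 (2.63 to 6.45), Csrp1 at 3.42 (3.02 to 3.87) and Flna at 3.30 (2.94 to 3.71). Des (desmin) was at 1.07 (0.852 to 1.32) and Vcl at 1.00 (0.628 to 1.55). Of 15 measured control genes 4 were higher, among them Itga8 at 3.95 (2.37 to 6.51) and Ppp1r14a, an inhibitor of myosin phosphatase, at 2.43 (1.98 to 2.98). Srf was higher at 2.65 (1.42 to 4.75) and Klf4, a factor that represses contractile genes, lower at 0.377 (0.306 to 0.461). Of the mural identity genes, Mcam, Cspg4 and Heyl were 2-fold higher and Gja4 lower. The EC gate genes summed to 34.7 CPM in healthy Rgs5-low cells and the 8 CM markers to 866 CPM, of which Pln alone was 768 CPM and Tnnt2 57.8 CPM, with at most 2 UMIs of each other marker and Myh6 at 0. Their median mitochondrial share was 15.3% and their median depth 1952 UMIs, against 5.11% and 3234 UMIs in gated SMC-like cells. The part of these differences in the member levels was not tested.

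Among all cells of both smooth muscle sets, contractile levels were read in steps of Rgs5. Cells with little Rgs5 could enter only through the smooth muscle list, while cells rich in Rgs5 could pass the gate on Rgs5 itself, so that part of the order is set by how the cells were chosen. In the healthy library the members summed to 57138, 36214, 17875 and 11618 CPM in cells with under 5, 5 to under 40, 40 to under 80 and 80 or more Rgs5 UMIs per 10000, over 70, 59, 96 and 91 cells. Actg2 followed the same order, at 579, 225, 6.79 and 2.69 CPM. At 2 weeks the sums were 34451, 41045, 30460.4 and 20931 CPM over 5, 10, 15 and 24 cells, and at 12 weeks 50248, 44636, 32864 and 20183 CPM over 7, 5, 9 and 5 cells. The sums thus ran against Rgs5 at every step at 0 and 12 weeks, while at 2 weeks the lowest step lay below the next. Among the 5 cells of that 2-week step were 2 with EC gate UMIs and no UMI of Rgs5 or of a member. There was no gap at the limit of the set, since 39 of the 396 cells had from 5 to under 20 Rgs5 UMIs per 10000, beside 82 below 5. EC RNA differed along with Rgs5. In the healthy library, gated SMC-like cells with an EC gate UMI had 14068 CPM of members and 8081 CPM of Rgs5, and those without had 31577 and 5323 CPM.

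**Figure D4:**
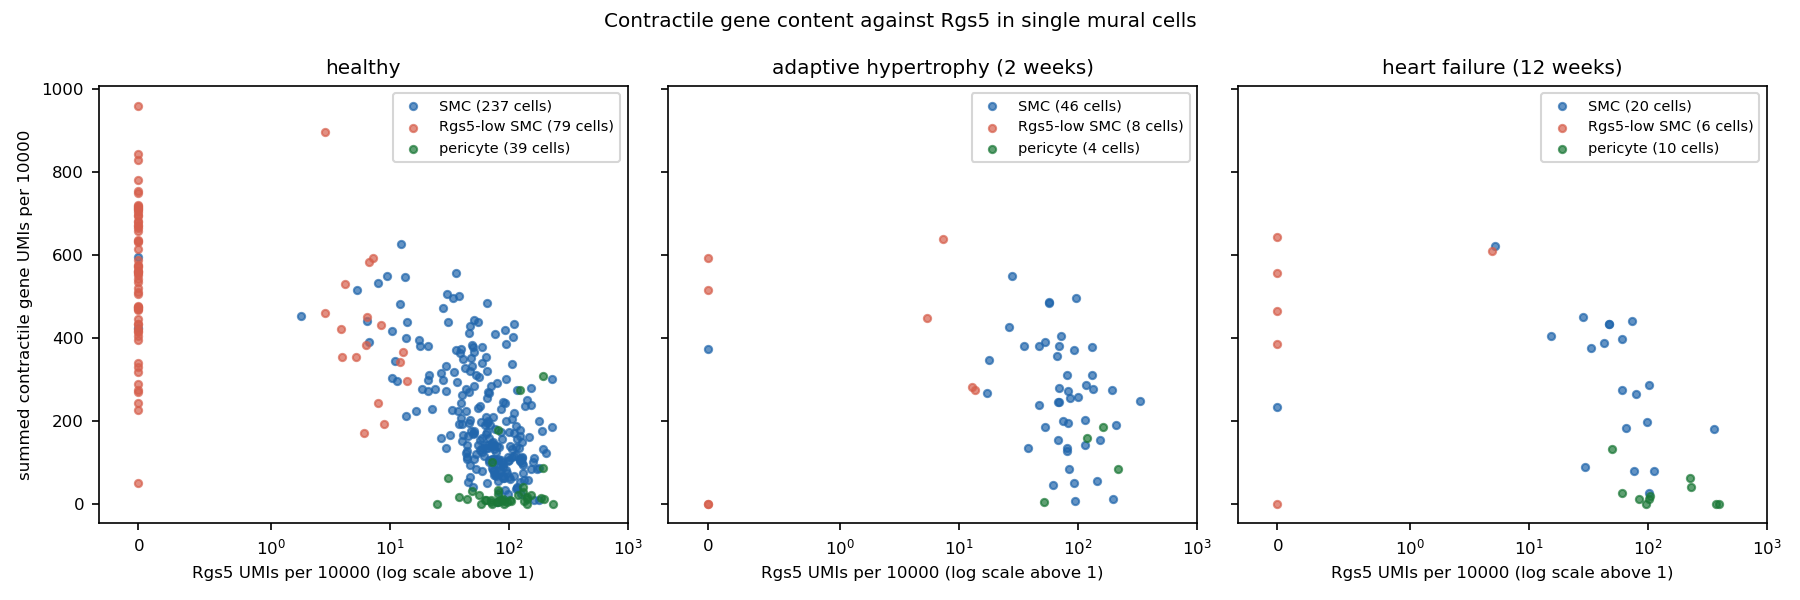
Summed UMIs of the 10 members per 10000 UMIs against Rgs5 UMIs per 10000 (log scale above 1) in each SMC-like, Rgs5-low SMC-like and pericyte-like cell, 1 panel per library and 1 point per cell. Healthy Rgs5-low cells have a median of 529.9, gated SMC-like cells of 171 and pericyte-like cells of 10.2 member UMIs per 10000.

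The phases were then compared within gated SMC-like cells. At 2 weeks, none of the 10 members was 2-fold higher than in the healthy library and 1, Actg2, was 2-fold lower, where 6.08% of genes were higher and 12.3% lower by that margin. The members summed to a ratio of 1.45 (1.41 to 1.5). Myl9 had the ratio 1.96 (1.82 to 2.10), Tagln 1.55 (1.44 to 1.66), Tpm2 1.41 (1.29 to 1.54), Myh11 1.40 (1.24 to 1.57) and Acta2 1.34 (1.27 to 1.42). For Mylk (0.967, interval 0.838 to 1.11), Lmod1 (0.841, interval 0.635 to 1.10), Cnn1 (1.31, interval 0.783 to 2.11) and Smtn (1.43, interval 0.872 to 2.26) the intervals include 1. The call on Actg2 rested on 1 UMI at 2 weeks, and its ratio was 0.175 (0.00429 to 1.05).

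At 12 weeks, 3 of the 10 members were at least 2-fold higher in SMC-like cells than in the healthy library and none was 2-fold lower, where 9.01% of genes were higher and 16.2% lower. The median log2 ratio was 0.86 for the members and -0.12 for all genes compared. Cnn1, at 94.1 CPM in the healthy and 324 CPM in the heart failure library, had the ratio 3.44 (2.13 to 5.37). Myl9 was higher by 2.38 (2.17 to 2.60) and Tpm2 by 2.33 (2.11 to 2.57). Acta2 (1.94, interval 1.81 to 2.08) and Tagln (1.92, interval 1.76 to 2.10) lay just under the limit. Myh11 (0.960, interval 0.785 to 1.16) and Mylk (0.937, interval 0.760 to 1.15) stood near 1, Lmod1 had 1.45 (1.06 to 1.96), and Smtn 1.72 (0.882 to 3.09). Leaving out each of the 20 heart failure cells in turn gave 2.67 to 3.86 for Cnn1, 2.15 to 2.52 for Myl9, 2.17 to 2.48 for Tpm2 and 0.839 to 1.02 for Myh11.

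The size of the 12-week difference turned on which cells carried the UMIs. The members together had a ratio of 1.90 (1.82 to 1.98) when all UMIs of a class were pooled and of 1.39 when each cell counted equally, with 1 member 2-fold higher instead of 3. Per cell, the members made up medians of 171, 261 and 279.6 UMIs per 10000 at 0, 2 and 12 weeks, with quartiles of 106 and 298, 161 and 371, and 181 and 411, so that the cells of the 3 libraries overlapped widely. Among cells of 1000 to under 5000 UMIs, 10 at 12 weeks and 180 healthy, the summed ratio was 1.36 (1.27 to 1.45), and among deeper cells, 6 and 57, it was 2.71 (2.58 to 2.86). Acta2 had ratios of 1.24 (1.10 to 1.40) and 3.03 (2.77 to 3.32) in these groups and Myh11 of 1.42 (1.09 to 1.82) and 0.675 (0.486 to 0.916), on opposite sides of 1. Cnn1 was at 3.71 (1.80 to 7.06) and 3.53 (1.78 to 6.61).

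EC markers moved with the phase, from 1529 to 809 CPM, and SMC-like cells were therefore also split by an EC gate UMI. Among those without one, 96 healthy and 9 at 12 weeks, the members had a summed ratio of 1.33 (1.24 to 1.42), Acta2 of 1.39 (1.24 to 1.55), Myl9 of 1.65 (1.43 to 1.91) and Tpm2 of 1.49 (1.26 to 1.75), and Cnn1 of 0.989 (0.349 to 2.28). Myh11 and Mylk were lower in these cells at 12 weeks, with 0.540 (0.352 to 0.795) and 0.578 (0.380 to 0.846). Among those with an EC gate UMI, 141 and 11 cells, the summed ratio was 2.27 (2.16 to 2.39) and that of Cnn1 8.01 (4.35 to 14.4). When no gate UMI of any other class was allowed, 4 cells remained at 12 weeks and 45 in the healthy library, and the summed ratio was 0.600, below 1. Among the CM markers, Tnnt2, which encodes cardiac troponin T, had a 12-week ratio of 4.09 (2.74 to 5.98), while Pln was at 349.6 and 448 CPM and the other 6 had at most 2 UMIs each at 12 weeks, with Myh6 and Tnni3 at 0. The part of EC RNA in the member ratios was not tested.

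Rgs5-low cells made up a different share of smooth muscle cells in each library (79 of 316, 8 of 54 and 6 of 26). With both sets pooled, the 12-week ratios to healthy were 1.62 (1.52 to 1.72) for Acta2, 1.98 (1.83 to 2.14) for Myl9, 1.84 (1.69 to 2.01) for Tpm2, 2.22 (1.53 to 3.13) for Cnn1 and 0.800 (0.670 to 0.95) for Myh11. Within the steps of Rgs5 from lowest to highest, Acta2 had 12-week ratios of 0.870, 1.25, 1.99 and 1.56, with the larger ratios in the cells with 40 or more Rgs5 UMIs per 10000. Tpm2 stood at 0.890, 1.28, 2.39 (2.09 to 2.73) and 3.26 (2.15 to 4.77), where the last intervals overlap, and Myl9 was at 1.12, 1.60, 2.16 and 2.17. Myh11 stood below 1 in every step, at 0.633, 0.659, 0.758 and 0.351. The last of these rests on 2 UMIs at 12 weeks, with an interval of 0.0424 to 1.28 that includes 1. Each 12-week step held 5 to 9 cells.

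The make-up of the contractile RNA differed between libraries less by Acta2 than by Myh11 and Mylk. Acta2 took 32.1% (31.4 to 32.8) of all member UMIs in healthy SMC-like cells, 29.6% (28.3 to 30.9) at 2 weeks and 32.8% (31.0 to 34.5) at 12 weeks. Myh11 took 7.85% (7.46 to 8.25), 7.56% (6.83 to 8.35) and 3.97% (3.28 to 4.75). The share of Mylk was 7.39% (7.01 to 7.78), 4.92% (4.32 to 5.57) and 3.65% (2.99 to 4.41). Myl9 went from 15.7% (15.2 to 16.3) to 21.1% (20.0 to 22.3) and 19.7% (18.2 to 21.2). These shares pool cells of all depths. In the 10 gated 12-week cells of 1000 to under 5000 UMIs, Myh11 had a ratio to healthy of 1.42, Mylk 1.12 and the summed members 1.36. In the 6 deeper cells the ratios were 0.675, 0.835 and 2.71. The lower Myh11 share was thus seen in the deeper and not in the shallower cells. In the Rgs5-low cells Myh11 had 7.27% (6.76 to 7.81) in the healthy and 3.48% (2.32 to 4.99) in the heart failure library, and Mylk 3.93% (3.55 to 4.34) and 2.11% (1.23 to 3.36). The shares of both genes had intervals apart in each set, but their levels differed between the sets. In gated SMC-like cells the 12-week level ratios of Myh11 and Mylk were 0.960 and 0.937 while those of Acta2, Tagln, Myl9 and Tpm2 lay between 1.92 and 2.38, and in the Rgs5-low cells Myh11 and Mylk had level ratios of 0.474 and 0.532.

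**Figure D5:**
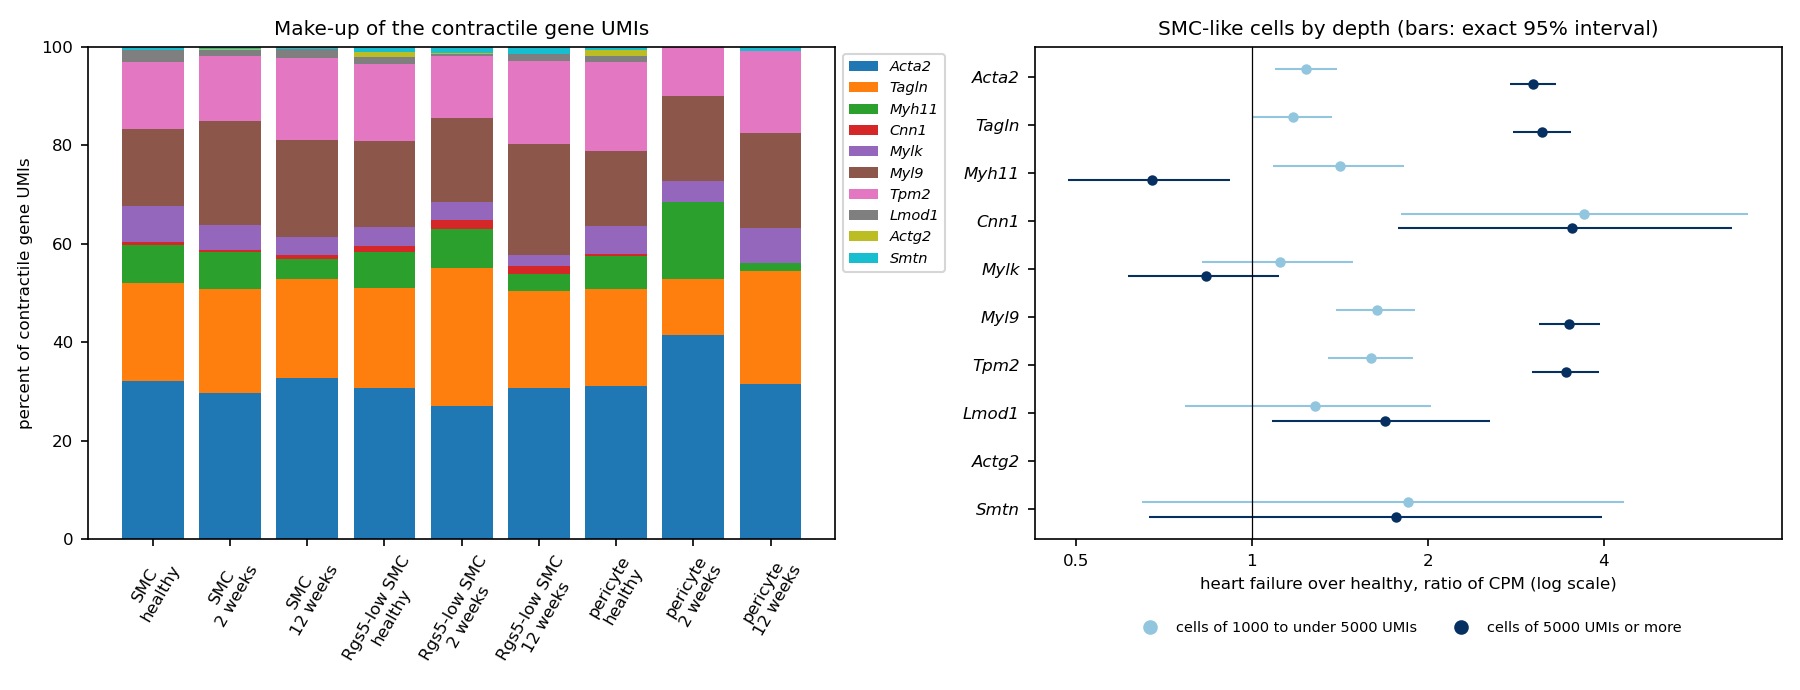
Left, the percent of all member UMIs that each member took in SMC-like, Rgs5-low SMC-like and pericyte-like cells of each library. Right, the heart failure to healthy ratio of CPM (log axis) of each member in SMC-like cells of 1000 to under 5000 UMIs and of 5000 or more, with exact 95% intervals, where Acta2 stands at 1.24 and 3.03 and Myh11 at 1.42 and 0.675, and Actg2 is not drawn because it had no UMI at 12 weeks.

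Among the 15 further actin, myosin and cytoskeletal genes, 1 was 2-fold higher at 12 weeks in SMC-like cells, Pdlim3 at 2.33 (1.46 to 3.60), and none 2-fold lower. Over all genes 9.01% were higher and 16.2% lower by that margin, so 1 of 15 in this or the control list is near that share. Csrp1 was at 1.99 (1.61 to 2.43) and Des at 1.70 (1.31 to 2.17), while Tpm1, the other main tropomyosin gene of the list, was at 1.02 (0.875 to 1.18) and Cald1 at 0.713 (0.594 to 0.850). Of 15 measured control genes, Ppp1r14a was 2-fold higher at 2.13 (1.57 to 2.83), and Gucy1a3, a subunit of the nitric oxide receptor, was at 0.647 (0.456 to 0.893). Csrp2 had 2.05 (1.61 to 2.59) and Klf4 0.529 (0.408 to 0.676), and Myocd, with 1 UMI at 12 weeks, 0.301 (0.00744 to 1.78). Klf4 was lower at 12 weeks in other classes too. It went from 1684 to 1082 CPM in FBs, 1564 to 1226 CPM in ECs and 534 to 231 CPM in BCs. In pericyte-like (741 and 1003 CPM) and Rgs5-low cells (595 and 610 CPM) it was not lower. Csrp2 was also higher in FBs (295 and 444 CPM) and pericyte-like cells, but not in Rgs5-low cells, ECs or BCs. Cspg4 was the 1 mural identity gene past 2-fold, lower at 0.477 (0.127 to 1.26). At 2 weeks none of the 15 cytoskeletal genes passed 2-fold, while Srf (2.57, interval 1.38 to 4.61) and Mcam (2.41, interval 1.85 to 3.11) were higher and Gucy1a3 (0.448, interval 0.338 to 0.583) lower. Over all genes 6.08% were higher and 12.3% lower at 2 weeks. Mcam was higher in ECs of that library as well, at 84.6 CPM in healthy and 178 CPM in 2-week ECs. FBs and BCs had at most 1 UMI of it at 2 weeks. The median log2 ratio of the 15 cytoskeletal genes was 0.092 at 12 weeks and 0.47 at 2 weeks.

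In the Rgs5-low cells, 2 of the 10 members were at least 2-fold lower at 12 weeks than in the healthy library, where 13.6% of genes were, and none was 2-fold higher. Acta2 had 16931 CPM in the 79 healthy and 16741 CPM in the 6 heart failure cells, a ratio of 0.989 (0.865 to 1.13). Myh11, at 0.474 (0.313 to 0.691), was lower, and Mylk had 0.532 (0.307 to 0.863). Myl9 was at 1.30 (1.11 to 1.52). Actg2 had 104 UMIs in the healthy and none in the heart failure cells and was at least 2.95-fold lower against a floor of 3 counts in the class. Among the 6 cells, 1 held no member UMI, as did 2 of the 8 cells at 2 weeks, and these 3 cells had EC gate UMIs. At 2 weeks Acta2 had a ratio to healthy of 0.588 (0.495 to 0.693) in the Rgs5-low cells, and leaving out each of the 8 cells in turn gave 0.360 to 0.757. Without cells that held an EC gate UMI, 6 at 2 weeks and 74 healthy, the ratio was 0.819 (0.690 to 0.966) for Acta2, 1.01 (0.730 to 1.38) for Myh11 and 0.930 (0.852 to 1.01) for the 10 members summed. The same choice at 12 weeks, with 5 cells, gave 0.482 (0.318 to 0.703) for Myh11 and 0.544 (0.314 to 0.884) for Mylk.

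Pooled over all pericyte-like cells, Acta2, Tpm2 and Myh11 gave no difference beyond counting error at 12 weeks, but cells of unlike depth differed in opposite directions. Among cells of 1000 to under 5000 UMIs, 7 at 12 weeks and 36 healthy, Acta2 had a ratio of 0.254 (0.0914 to 0.569). The summed members had 0.459 (0.311 to 0.657) there. In the 1 deeper cell against 3 healthy ones, Acta2 had 4.42 (2.54 to 7.73) and the sum 2.98 (2.21 to 4.02). Acta2 was at 1404 CPM in the 39 healthy and 1569 CPM in the 10 heart failure cells, a ratio of 1.12 (0.753 to 1.62), and without 1 of these cells it was 0.255. Tpm2 had 1.01 (0.582 to 1.68) and Myh11 0.292 (0.0339 to 1.15). In the mural gate as a whole the 12-week ratios were 1.68 (1.57 to 1.80) for Acta2, 2.09 (1.90 to 2.28) for Myl9 and 0.821 (0.673 to 0.994) for Myh11, with SMC-like cells as 237 of 284 and 20 of 34 of the cells.

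FBs and ECs held small amounts of most members, and these were read against BCs of the same library. In healthy FBs Acta2 had 176 CPM and Tpm2 124 CPM, and their ratios to BCs were 1.45 (1.28 to 1.66) and 1.72 (1.45 to 2.03). In ECs Acta2 (0.913, interval 0.785 to 1.06) and Myl9 (1.00, interval 0.828 to 1.21) did not differ from BCs beyond counting error. Few cells carried much of this RNA. Cells with at least 5 members, 21 of 1264 FBs, 15 of 1105 ECs and 6 of 947 BCs in the healthy library, held 55.9%, 55.5% and 67.4% of the member UMIs of their class. Smtn stood apart, with 60.9, 85.3 and 74.4 CPM in ECs and 39.6, 57.7 and 52.8 CPM in FBs at 0, 2 and 12 weeks, against 8.77 CPM in healthy BCs, a ratio of 6.94 (4.53 to 11.1) for ECs and 4.52 (2.93 to 7.25) for FBs. Mylk was also higher in ECs than in BCs, at 2.35 (1.82 to 3.05), and not in FBs, at 0.865 (0.645 to 1.16).

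Cells with a UMI of the mural gate or the smooth muscle list were then left out of these classes, a choice made after seeing the data. Smtn stayed higher in healthy ECs than in BCs, at 11.1 (6.03 to 22.3), and at 15.4 (4.20 to 128) and 12.7 (3.08 to 112) at 2 and 12 weeks. Mylk had 2.08 (1.33 to 3.29) in healthy ECs, and the other 8 members had intervals that include 1. In healthy FBs Acta2 was at 1.98 (1.52 to 2.61), Tagln at 2.70 (2.00 to 3.71), Tpm2 at 2.50 (1.89 to 3.35), Myl9 at 2.26 (1.63 to 3.19) and Smtn at 7.30 (4.02 to 14.6), while Myh11 was lower than in BCs, at 0.502 (0.257 to 0.954).

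Between phases, 3 of 9 members with enough UMIs were 2-fold lower in FBs at 12 weeks than in the healthy library, where 6.88% of genes were, namely Acta2, Myh11 and Mylk. Acta2 had 176, 92.2 and 67.3 CPM at 0, 2 and 12 weeks, and its 12-week ratio was 0.382 (0.273 to 0.521). Tagln had 0.537 (0.387 to 0.728) and Smtn 1.33 (0.889 to 1.95). In BCs, the class that should lack the members, Acta2 had a 12-week ratio of 0.372 (0.210 to 0.613) and Tagln of 0.105 (0.0214 to 0.310), and the part of free RNA in the FB ratios was not tested. Without cells that held a mural UMI, FBs gave 0.495 (0.251 to 0.884) for Acta2, 0.884 (0.535 to 1.39) for Tagln and 1.75 (1.14 to 2.59) for Myl9. FBs with a UMI of Postn, a matrix gene of activated FBs, had higher levels than those without at 12 weeks for Acta2, at 2.80 (1.27 to 7.01), and Tagln, at 3.58 (1.58 to 9.51), and a lower level of Smtn, at 0.330 (0.144 to 0.710). In the healthy library the same split gave 0.876 (0.754 to 1.02) for Acta2 and 1.38 (1.16 to 1.63) for Tagln. FBs with a Postn UMI were deeper, with medians of 3415 against 1791 UMIs at 12 weeks, and the part of depth in these ratios was not tested.

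In ECs, 8 of 9 members with enough UMIs were 2-fold lower at 2 weeks than in the healthy library, where 6.34% of genes were. Acta2 went from 111 to 26.7 CPM, a ratio of 0.241 (0.190 to 0.305), and Myl9 had 0.188 (0.135 to 0.258). Smtn was the member that was not lower, at 1.40 (1.17 to 1.69). BCs of the 2-week library were low too, with 121 CPM of Acta2 at 0 weeks and 9.95 CPM at 2 weeks. In ECs without mural UMIs, Acta2 had 0.756 (0.521 to 1.10), Mylk 0.881 (0.593 to 1.31), Myl9 0.164 (0.0770 to 0.320) and Smtn 1.40 (1.08 to 1.84). At 12 weeks ECs had 157 CPM of Acta2, a ratio of 1.42 (1.09 to 1.82), but 1 of 299 ECs held 59.0% of all member UMIs, and without cells that held mural UMIs the ratio was 0.819 (0.338 to 1.72).

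Finally, the genes whose pattern was most like that of the members were listed by Pearson's r between log2(CPM + 10) of a gene and the mean of the members over SMC-like cells, pericyte-like cells, FBs, ECs and BCs in the 3 libraries, 15 points that share libraries, among 1620 genes. The 8 highest were Rasl11a (0.968), Cyc1 (0.953), Des (0.949), Pkig (0.944), Rbbp6 (0.944), Pdgfa (0.941), Rcan2 (0.940) and Cox8a (0.936). Des encodes desmin, the intermediate filament of muscle, and was also in the cytoskeletal list. Cyc1 and Cox8a encode subunits of the mitochondrial respiratory chain. Rasl11a stood at 1945 CPM in healthy SMC-like and 558 CPM in pericyte-like cells. The members' own r with their mean ran from 0.979 for Acta2 to 0.487 for Smtn and 0.433 for Actg2, so that those 2 members had the pattern least like the others. These values describe the 15 points and carry no test.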

How the data were processed

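Cells of 3 droplet libraries of mouse non-CMs, 1 per phase, were analysed. For each library the authors deposited UMI counts per gene and cell, which the submitters' processing notes credit to Cell Ranger 2.0.0 and the mm10 genome, after sequencing of 10x Genomics 3′ v2 libraries. Cells with at least 200 genes were kept (3892 of 3900, 2231 of 2239 and 792 of 802), with 12287823, 4465929 and 1712728 UMIs. A cell took the class with the most UMIs of its gate genes if these numbered at least 3 and the next class had at most 50% as many. Mural cells were SMC-like with at least 2 smooth muscle list UMIs that outnumbered the pericyte list, pericyte-like in the reverse case and otherwise unresolved. Counts were summed per class and library and given as CPM. Since 1 library per phase leaves no replicates, no p-value was computed. Ratios carry exact conditional binomial intervals, levels Poisson intervals and shares Clopper-Pearson intervals, all at 95%. A gene was called at 2-fold with at least 20 UMIs over both groups, and a group at 0 was set at a floor of 3 counts. Doublets were marked by Scrublet in scanpy (35, 2 and 5 cells) and left out only as an alternative, and with so few marked at 2 weeks the caller says little there. The 10 members and the gene lists were chosen with earlier results of these data known. All members were named, list genes were given as counts with the largest and those with at least 20 UMIs open to naming, and the 8 most like genes by correlation among genes with at least 100 UMIs in healthy SMC-like and pericyte-like cells. The Rgs5-low set, the steps of Rgs5 and of depth, the split by other classes' UMIs, the classes without mural UMIs, the Postn split and leaving out single cells were chosen after seeing the data. The ratio, its interval and the 2-fold call were tested on simulated counts, and the gating and other steps were not. Python 3.11.15, numpy 2.4.6, scipy 1.17.1, pandas 2.3.3, scanpy 1.11.5 and matplotlib 3.10.9 were used.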

Additional observations from a re-analysis of the deposited data

Results flagged for a closer look

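For some members the ratio between phases lay above 1 in SMC-like cells and below 1 in another class, with neither interval reaching 1. With 1 library per phase these differences were not tested. Each value is the ratio to healthy in SMC-like cells divided by that in the other class. Between the healthy library and 2 weeks, against FBs, it was 2.565 for Acta2 and 3.65 for Myl9, and at least 3.302 for Myh11, which had no UMI in FBs at 2 weeks. Against ECs over the same phases it was 5.56 for Acta2, 6.98 for Tagln, 11.66 for Myh11, 10.4 for Myl9 and 9.173 for Tpm2, and BCs of that library were low in the members as well. In ECs without cells that held a mural UMI, the interval of the Acta2 ratio includes 1, so its opposite direction does not hold there. The Myl9 ratio stayed below 1 in those cells. Against the Rgs5-low SMC-like cells, of which there were 8 at 2 weeks, it was 2.285 for Acta2, 1.908 for Myh11, 2.97 for Myl9 and 2.633 for Tpm2. The Rgs5-low ratios behind these values include 2 cells with EC gate UMIs and no member UMI, and without such cells they were 0.819 (0.690 to 0.966) for Acta2, 1.01 (0.730 to 1.38) for Myh11, 0.922 (0.741 to 1.14) for Myl9 and 0.733 (0.568 to 0.932) for Tpm2, so that for Myh11 and Myl9 the intervals include 1. Between the healthy library and 12 weeks, against FBs, it was 5.084 for Acta2, 3.584 for Tagln and 3.454 for Tpm2, and at least 4.612 for Cnn1, which had no UMI in FBs at 12 weeks. BCs were lower in Acta2 and Tagln at 12 weeks as well. In FBs without cells that held a mural UMI, the interval of the Tagln ratio includes 1, so its opposite direction does not hold there.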

How the results depend on the processing

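No paired analysis was possible because each phase had 1 library and no result came from a test. Of 202 alternative values for the main results, 172 stayed within the counting interval or 1.5 times the count and 30 moved, and of those for single members and other classes 1190 stayed, 184 moved and 4 reversed. The SMC-like to pericyte-like ratio of the summed members, 4.096 in the healthy library, was 23.26 without cells holding a UMI of another class, 5.926 as a mean over cells, 11.41 with the split by clusters and 5.353 with the smooth muscle list added to the gate, and between the ends of the index 5.935 became 24.06, 8.514 and 7.624 in the same order without the clusters. In heart failure 7.077 became 14.55 without other-class UMIs and 9.802 as a mean over cells, and the 8 members higher became 1 and, by clusters, 5. By clusters the 4 members higher at 2 weeks became 0. For SMC-like cells at 2 weeks against healthy, a gate of 5 UMIs gave 1 member higher and a sum of 1.538 instead of 0 and 1.454, removal of cells over 10% mitochondrial UMIs 1 and 1.524, and the sum was 1.226 without other-class UMIs, 1.243 as a mean over cells and 1.152 with the smooth muscle list in the gate. At 12 weeks against healthy, 3 members and a sum of 1.899 became 5 and 2.049 with a gate of 5, 5 and 2.06 without cells over 10% mitochondrial UMIs, 1 and 1.388 as a mean over cells, and 0 and 0.5999 without other-class UMIs, while the sum was 1.822 with mixed cells kept, 1.764 by clusters and 1.597 with the smooth muscle list in the gate. Without other-class UMIs, which left 4 SMC-like cells at 12 weeks, Myl9 reversed to 0.4148 in SMC-like and 0.3266 in mural cells and Tpm2 to 0.6679 in mural cells. By clusters, where 1 pericyte-like cell remained at 2 weeks, the pericyte-like sum against healthy was 0. The causes were not tested. Where a setting left a class without cells, no value was given. Small numbers of mural cells in the TAC phases and 1 library per phase limit these values.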
